A study of Macaca mulatta with 4 samples.

Results

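CD14+ classical monocytes, the phagocytes that patrol blood and enter inflamed tissue, were followed through 4 macaque blood samples taken around an islet transplant. The cells were those that the authors' deposited annotation labels CD14+ monocyte. There were 1243 of them among 6993 labelled cells, with 256 before and 329 after immunosuppression, and 312 and 346 at weeks 4 and 8. The libraries came from peripheral blood mononuclear cells (PBMCs) of rhesus macaques (Macaca mulatta) in a study of islets made from human pluripotent stem cells. Pre-IS blood was drawn before immunosuppression, and Post-IS blood after immunosuppression and ahead of the transplant. The samples at 4 wpt and 8 wpt were drawn 4 and 8 weeks post-transplantation. The labels name neither the immunosuppressive agents nor the age, sex or number of animals, and give no treatment field for the samples at 4 wpt and 8 wpt. Nor do they say if 1 animal gave every sample.

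Classical monocytes leave the bone marrow through the chemokine receptor CCR2 and sense bacterial lipopolysaccharide through CD14. They carry the calcium-binding alarmins S100A8 and S100A9 and lysozyme, and present antigen on MHC class II molecules. Glucocorticoids, a common part of immunosuppressive regimens, raise the scavenger receptor CD163 and lower MHC class II in these cells. Type I interferon induces an antiviral gene program in them. AP-1 proteins and other early response genes are induced within minutes of many stimuli.

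With a single library per group there was no replicate spread, and groups were not tested against each other. UMIs (unique molecular identifiers), which count captured RNA molecules, were summed over the CD14+ cells of a library. A level is given as CPM, UMIs per 1000000 UMIs of the class in that library, and intervals are 95% and cover counting error only. They treat UMIs as independent and can be too narrow where 1 cell holds many of them. In library order (Pre-IS, Post-IS, 4 wpt, 8 wpt) the class held 548156, 448622, 1175605 and 1039257 UMIs. The median cell held 2058.5, 1196, 3190 and 2853.5 UMIs in that order, and 959.5, 652, 1288.5 and 1194 genes. A gene without any UMI could still have a level, by the floor of 3 counts, of up to 5.47, 6.69, 2.55 and 2.89 CPM. Mitochondrial genes took 0.792% of class UMIs before and 1.24% after immunosuppression, and 1.03% and 0.894% at weeks 4 and 8. Post-IS was thus the shallowest library and had the highest mitochondrial share, and comparisons of 4 wpt and 8 wpt with Pre-IS leave it out. Among cells labelled CD14+ monocyte, no barcode was shared by any pair of libraries.

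Markers of the label stood high in its cells. How cells were labelled is not given, so these markers may themselves have been used for it. CD14 stood at 883 CPM in Pre-IS, 954 in Post-IS, 651 in 4 wpt and 630.3 in 8 wpt cells. Among MS4A7+ monocytes, the nonclassical class of the annotation, it lay between 20.98 and 49.98 CPM over the libraries, and T cells had at most 20.9 CPM. S100A8 had 6029 CPM in Pre-IS, 7608 in Post-IS, 7577 in 4 wpt and 6315 in 8 wpt cells under the CD14+ label, against at most 119.9 CPM in MS4A7+ monocytes and 62.6 CPM in T cells. S100A9, its partner in the calprotectin dimer, had 2102 CPM in Pre-IS, 2936 in Post-IS, 2696 in 4 wpt and 1919 in 8 wpt cells. The secreted bactericidal enzyme LYZ had 10220.0 CPM in Pre-IS, 8823 in Post-IS, 10896 in 4 wpt and 10676 in 8 wpt cells. LYZ was less specific, with 797 to 2280 CPM in MS4A7+ monocytes and 3018 to 4235 CPM in dendritic cells of Pre-IS, 4 wpt and 8 wpt. The matrix proteoglycan VCAN had 956 CPM in Pre-IS, 1542 in Post-IS, 1478 in 4 wpt and 1059 in 8 wpt cells, against 107 to 363 CPM in MS4A7+ monocytes. At least 2 of these 5 markers had a UMI in 98.4%, 90.3%, 98.7% and 98.3% of CD14+ cells in library order. The pattern recognition molecule FCN1, or ficolin 1, had 1664 CPM in Pre-IS, 929.5 in Post-IS, 1466 in 4 wpt and 1178 in 8 wpt cells and was lowest at Post-IS.

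**Figure D1:**
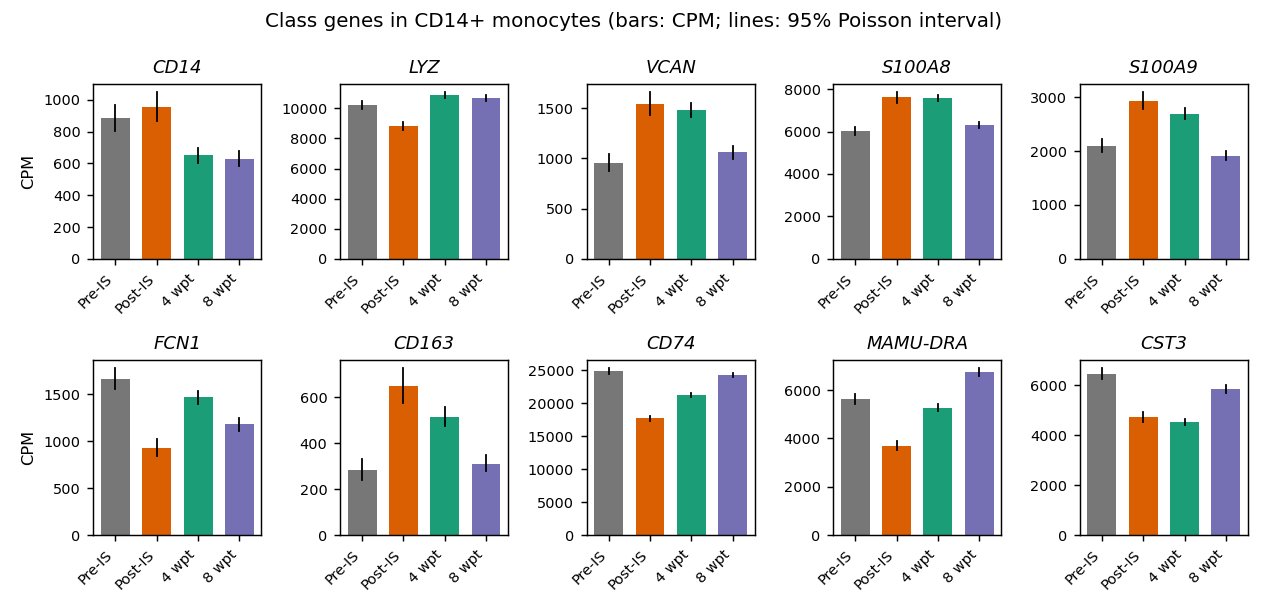
Levels of 10 genes in CD14+ monocytes, in CPM on linear axes that start at 0, with 1 bar per library and 95% Poisson intervals as lines. CD14, LYZ and the S100 genes were high in all 4 libraries, while MAMU-DRA, CD74 and FCN1 were lowest for Post-IS among these bars.

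Markers of other cell types were present in CD14+ cells to differing extents. A UMI of any of 4 dendritic cell markers, CD1C among them, was seen in 32.0%, 15.5%, 27.6% and 48.8% of cells in library order, and at least 2 of the 4 in 2.73%, 1.22%, 2.56% and 4.05%. CD1C was higher in B cells than in dendritic cells for Pre-IS, 4 wpt and 8 wpt. A hemoglobin or other red cell marker UMI was seen in 56.25%, 42.9%, 59.0% and 60.1% of cells. A UMI of any of 5 MS4A7+ monocyte markers was seen in 30.9%, 24.0%, 28.2% and 35.8%. At least 2 of 4 T cell markers were seen in 0.781% of CD14+ cells before and 0.304% after immunosuppression, and 1.28% and 2.31% at weeks 4 and 8. At least 2 of the 5 MS4A7+ monocyte markers were seen in 6.64%, 8.21%, 8.65% and 12.1% of the cells in that order. A UMI of any of 4 platelet markers was seen in 3.52% of cells before and 15.5% after immunosuppression, and 3.53% and 14.2% at weeks 4 and 8. Over the 11 genes of the platelet list the summed level was 51.1 CPM before and 305 after immunosuppression, and 51.0 and 238 at weeks 4 and 8. Post-IS and 8 wpt were therefore the libraries whose CD14+ cells carried most platelet transcripts. PF4, the platelet chemokine, had 0, 25, 5 and 44 UMIs in library order, and ITGB3, a platelet integrin, had 1 UMI in all. At 4 wpt the hemoglobin alpha row held 2182 UMIs, of which 1773 sat in 1 cell.

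Among all labelled cells the CD14+ share was 13.3% in the Pre-IS library, with an exact binomial interval of 11.8 to 14.9, and 54.6% in the Post-IS library, with 50.5 to 58.6. It was 16.6% (14.9 to 18.3) in the 4 wpt library and 13.4% (12.1 to 14.8) in the 8 wpt library. Post-IS stood far above the other libraries, whose intervals reached from 11.8% to 18.3%. Of all monocytes, CD14+ cells were 77.3% (72.4 to 81.7) before and 71.5% (67.2 to 75.6) after immunosuppression, and 60.1% (55.8 to 64.4) and 84.2% (80.3 to 87.6) at weeks 4 and 8. Within monocytes the low point was therefore at 4 wpt, when 207 cells carried the MS4A7+ label. A share is relative, and the number of cells per volume of blood was not measured.

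After immunosuppression most early response, glucocorticoid-induced and mitochondrially encoded genes stood higher in CD14+ monocytes, and several MHC class II genes stood lower. A gene was counted as higher or lower when its CPM ratio passed 1.5-fold with at least 20 UMIs over both libraries. By that rule 857 of 5152 genes, or 16.6%, were higher for Post-IS than for Pre-IS, and 670, or 13%, were lower. Low counts can pass such a rule by counting error. Such all-gene shares, given for each pair, are the background for the CD14+ list counts of that pair. Under a stricter rule, with the whole interval past 1.5-fold, 79 genes (1.53%) were higher and 20 (0.388%) lower. The median log2 ratio over all 5152 genes was 0.04.

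The early response list holds AP-1 subunits, EGR and NR4A transcription factors and the phosphatases and RNA-decay factors that end their induction. Of its 17 measured members, 12 were higher for Post-IS and 0 were lower, against the 16.6% and 13% of all genes. For 10 of them the whole interval lay past 1.5-fold, with a list median, as a log2 ratio, of 1.07. JUN, an AP-1 subunit, stood at 96.7 CPM in Pre-IS, 682 in Post-IS, 38.3 in 4 wpt and 44.3 in 8 wpt cells, and was 7.05-fold higher (5.26 to 9.63) for Post-IS than for Pre-IS. FOS, its dimer partner, stood at 1961 CPM in Pre-IS, 4741 in Post-IS, 437 in 4 wpt and 589.8 in 8 wpt cells. Post-IS was highest and 4 wpt lowest for both of these AP-1 subunits, and the Post-IS to Pre-IS ratio of FOS was 2.42-fold (2.25 to 2.60). EGR1, a zinc finger factor of the growth factor response, had 91.2 CPM in Pre-IS, 421 in Post-IS, 18.7 in 4 wpt and 25.02 in 8 wpt cells, with Post-IS 4.62-fold higher (3.37 to 6.44) than Pre-IS. NR4A1, an orphan nuclear receptor, had 63.9 CPM in Pre-IS, 205 in Post-IS, 6.80 in 4 wpt and 12.5 in 8 wpt cells. DUSP1, which dephosphorylates MAP kinases and is also glucocorticoid-induced, had 852 CPM in Pre-IS, 2385 in Post-IS, 340.2 in 4 wpt and 311 in 8 wpt cells. JUNB, a further AP-1 subunit, had 538, 1016, 300.3 and 324 CPM, and MCL1, an inhibitor of apoptosis, had 383, 807, 374 and 299 CPM. KLF6, a Krüppel-like factor, was 3.27-fold higher (2.66 to 4.04) for Post-IS, on 229.9, 751, 185 and 161 CPM in library order. The exceptions lay between the limits, such as ZFP36L1, an RNA-decay factor, with 607, 584, 470.4 and 648 CPM.

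Single cells showed the same order. Each cell was thinned to 1000 UMIs, which left 221 of 256 Pre-IS cells, 187 of 329 Post-IS cells, 283 of 312 at 4 wpt and 334 of 346 at 8 wpt. The median cell then held 7, 15, 3 and 3 UMIs of the early response list in library order. The lower quartile of Post-IS cells was 11, above the upper quartile of 10 for Pre-IS and of 5 at both 4 wpt and 8 wpt. FOS had a UMI in 77.8% of thinned cells (71.8 to 83.1) before and 93.6% (89.1 to 96.6) after immunosuppression, and 37.5% (31.8 to 43.4) and 40.4% (35.1 to 45.9) at weeks 4 and 8. Before thinning these shares were 89.1%, 95.1%, 66.3% and 66.5%. T cells thinned to the same depth had a FOS UMI in 1.86%, 4.71%, 1.29% and 0.802% of cells, the Post-IS share over 85 cells. Free RNA itself was not measured. Post-IS cells were thus high as a body, and the difference did not rest on a small subset.

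**Figure D2:**
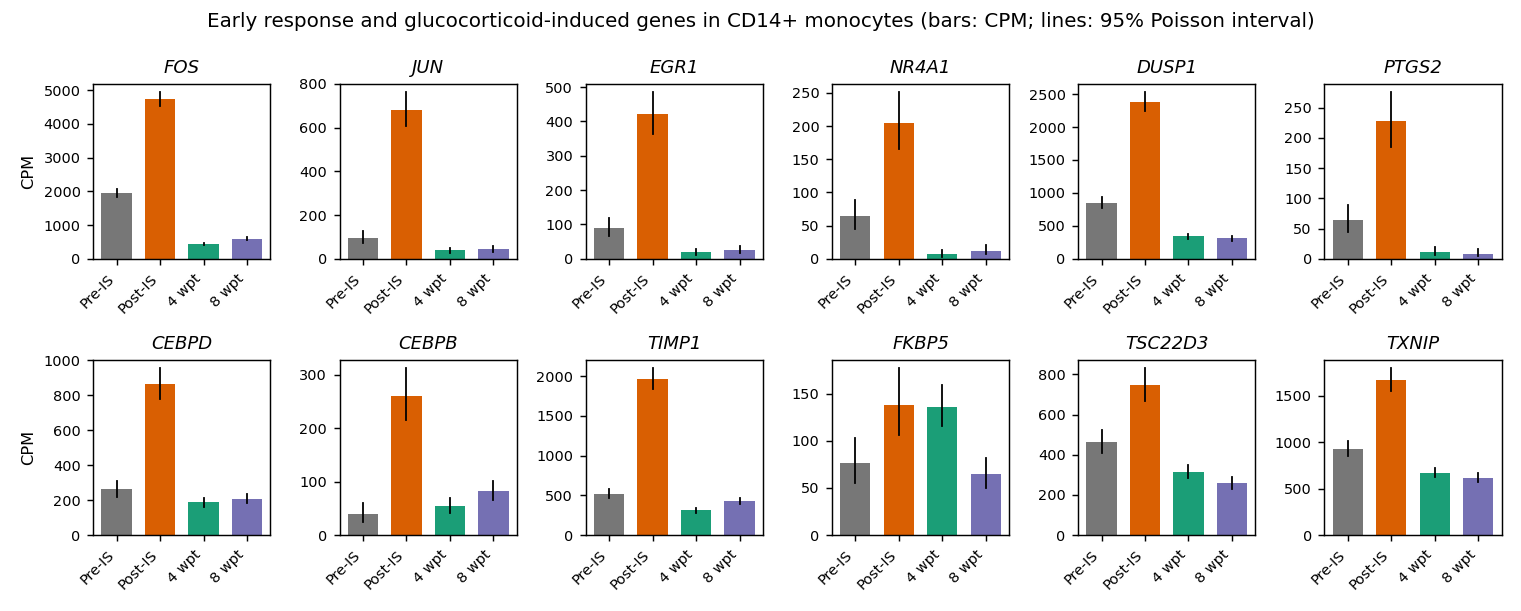
Levels of 12 early response and glucocorticoid-induced genes in CD14+ monocytes, in CPM on linear axes that start at 0, with 95% Poisson intervals as lines. Post-IS was the highest bar for each gene, while FKBP5 was about as high at 4 wpt (136 CPM) as at Post-IS (138 CPM).

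Of 16 measured glucocorticoid-induced genes 10 were higher for Post-IS and 0 lower, with a median of 0.85. FKBP5, a co-chaperone that restrains the glucocorticoid receptor, stood at 76.6 CPM in Pre-IS, 138 in Post-IS, 136 in 4 wpt and 64.5 in 8 wpt cells. Post-IS and 4 wpt were high and the other libraries low, with Post-IS 1.80-fold higher (1.20 to 2.74) than Pre-IS. CD163, the hemoglobin scavenger receptor, stood at 283 CPM in Pre-IS, 649 in Post-IS, 515 in 4 wpt and 312 in 8 wpt cells, and Post-IS was 2.29-fold higher (1.88 to 2.81) than Pre-IS. TSC22D3, known as GILZ, had 462 CPM in Pre-IS, 747 in Post-IS, 313 in 4 wpt and 259 in 8 wpt cells. DDIT4, an inhibitor of mTOR signalling, had 21.9 CPM in Pre-IS, 118 in Post-IS, 26.4 in 4 wpt and 16.4 in 8 wpt cells and was 5.40-fold higher (2.85 to 11.1) for Post-IS. TXNIP, a thioredoxin inhibitor, had 927 CPM in Pre-IS, 1669.6 in Post-IS, 672 in 4 wpt and 615 in 8 wpt cells, and the kinase SGK1 had 45.6 CPM in Pre-IS, 181 in Post-IS, 54.4 in 4 wpt and 82.8 in 8 wpt cells. CEBPD, a leucine zipper factor of this list and of the acute phase response, had 261 CPM in Pre-IS, 863 in Post-IS, 187 in 4 wpt and 208 in 8 wpt cells and was 3.31-fold higher (2.72 to 4.03). Other listed members lay near even, among them PER1, a clock gene, with 98.5, 84.7, 85.9 and 53.9 CPM, and ALOX5AP, the 5-lipoxygenase activating protein, with 305, 312, 311 and 269 CPM. DUSP1 stands on both this and the early response list, and CEBPD, DUSP1, DDIT4 and SGK1 also respond to stimuli other than glucocorticoids.

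Transcription factors that shape monocytes had 8 of 18 members higher for Post-IS and 2 lower, against 16.6% and 13% of all genes, with a median of 0.49. CEBPB, a C/EBP factor of monocyte differentiation, had 40.1 CPM in Pre-IS, 261 in Post-IS, 54.4 in 4 wpt and 81.8 in 8 wpt cells and was 6.50-fold higher (4.10 to 10.8) for Post-IS. KLF4 had 151, 343, 142 and 183 CPM and KLF2 228, 479, 179 and 294 CPM in library order, both highest at Post-IS. SPI1, or PU.1, the lineage factor of myeloid cells, stayed within 1.5-fold at 629, 655, 519 and 706 CPM. IRF8 had 62.4 CPM for Post-IS, against 96.7 CPM for Pre-IS. TIMP1, a secreted inhibitor of metalloproteinases, had 519.9 CPM in Pre-IS, 1966 in Post-IS, 311 in 4 wpt and 425 in 8 wpt cells, and was 3.78-fold higher (3.30 to 4.34) for Post-IS. NF-kB targets and cytokines had 7 of 10 measured members higher, 0 lower and a median of 0.77. PTGS2, the inducible cyclooxygenase, had 63.9 CPM in Pre-IS, 227 in Post-IS, 11.9 in 4 wpt and 8.66 in 8 wpt cells. The superoxide dismutase SOD2 had 524, 985, 860.0 and 650.5 CPM. The cytokine genes IL6 and CXCL8 had at most 1 UMI in any library, and IL1B had 106, 89.2, 79.1 and 77.9 CPM.

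MHC class II presentation genes had 3 of 9 measured members lower for Post-IS, 0 higher and a median of -0.48. The alpha chain MAMU-DRA stood at 5635 CPM in Pre-IS, 3691 in Post-IS, 5276 in 4 wpt and 6745 in 8 wpt cells, 1.53-fold lower (1.44 to 1.62) for Post-IS than for Pre-IS. CD74, the invariant chain, stood at 24903 CPM in Pre-IS, 17703 in Post-IS, 21263 in 4 wpt and 24315 in 8 wpt cells, and its Post-IS level was 1.41-fold lower (1.37 to 1.45). MAMU-DMB, a chain of the peptide editor, had 1289.8, 773, 922 and 1136 CPM, and the master regulator CIITA had 135, 69.1, 86.8 and 109 CPM. Post-IS was lowest for all of these, and 4 wpt lay between it and Pre-IS. CTSS, the cathepsin that cleaves the invariant chain, ran the other way with 1614, 2389.5, 1498 and 1445 CPM. Reads of class II genes can be shared among near-identical copies, so levels of single MAMU genes are uncertain.

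Among the genes named by size for the same pair were 2 of the phagocyte oxidase list. HVCN1, the proton channel that sustains the oxidative burst, had 67.5 CPM in Pre-IS, 15.6 in Post-IS, 26.4 in 4 wpt and 34.6 in 8 wpt cells and was 4.33-fold lower (1.90 to 11.5) for Post-IS. NCF1, the cytosolic oxidase subunit p47phox, had 330.2 CPM in Pre-IS, 165 in Post-IS, 198 in 4 wpt and 151 in 8 wpt cells, highest for Pre-IS. NCF1 has pseudogene copies in humans that can share reads, and how such reads were counted is not given. The membrane subunit CYBB stood within 1.5-fold at 463, 432, 428 and 439 CPM. Of 16 oxidase and antimicrobial genes 3 were lower and 0 higher, against 13% and 16.6% of all genes. The list median was -0.15, so the list as a whole moved little. FCN1 was 1.79-fold lower (1.59 to 2.01) for Post-IS. PSTPIP1, a cytoskeletal adaptor that binds pyrin, had 396, 192, 264 and 265 CPM, lowest for Post-IS. Other named genes lower for Post-IS were STMN3, PMPCA, IFFO1, MTMR14, RASA3, FKBP15, PEX16 and UPK3A, with folds between 2.73 and 7.37 on 2 to 18 Post-IS UMIs. PDK4, the kinase that turns off pyruvate dehydrogenase, was higher with 2, 27, 6 and 11 UMIs in library order. PPP2R3C, a phosphatase regulatory subunit, had 2, 20, 17 and 14 UMIs.

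Of 11 measured mitochondrially encoded genes 9 were higher for Post-IS, with a median of 1.18, and MS4A7+ monocytes had a median of 1.12 for this list. The oxidase subunit COX1 stood at 772 CPM in Pre-IS, 1866 in Post-IS, 423 in 4 wpt and 759 in 8 wpt cells. ND4L, whose reading frame overlaps that of ND4, had 18.2 CPM in Pre-IS, 455 in Post-IS, 28.1 in 4 wpt and 37.5 in 8 wpt cells, while ND4 had 292, 350.0, 253 and 308 CPM, so the split of reads between them is uncertain. Heat shock genes had 6 of 12 members higher for Post-IS and a median of 0.58, among them the chaperone HSPA5 with 52.9, 163, 104 and 105 CPM. These lists stood higher in the same library as the early response list, and their part in the early response values was not tested. Within Post-IS cells of at least 1000 UMIs, compared with Pre-IS cells of that depth, the early response median was 1.00 and that of the mitochondrial list 1.30.

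Transcripts of the platelet genes and of THBS1 separated from each other under the CD14+ label. PPBP, a platelet chemokine, stood at 21.9 CPM in Pre-IS, 176 in Post-IS, 17.01 in 4 wpt and 136 in 8 wpt cells, high for Post-IS and 8 wpt. PF4 had 0 UMIs for Pre-IS, and with that library at the floor it was at least 10.2-fold higher for Post-IS and at least 7.74-fold higher at 8 wpt. Without cells holding 2 markers of another type, platelet markers included, the log2 ratio of PF4 at 8 wpt over Pre-IS was -0.039. That step chooses cells partly by PF4 UMIs, and Pre-IS stays at the floor. The part of platelets in the PF4 values was therefore not tested. THBS1, the glycoprotein thrombospondin 1 that platelets store and monocytes also make, stood at 5.47 CPM in Pre-IS, 95.8 in Post-IS, 75.7 in 4 wpt and 18.3 in 8 wpt cells. It was high for Post-IS and 4 wpt instead, 17.5-fold higher (5.61 to 88.2) for Post-IS than for Pre-IS on 43 and 3 UMIs. Leaving out every cell with a platelet marker UMI gave THBS1 levels of 3.80 CPM before and 76.2 after immunosuppression, and 75.9 and 17.3 at weeks 4 and 8. The Pre-IS level after that step rested on 2 UMIs, and the part of platelets in the THBS1 values was not tested. At 4 wpt its 89 UMIs lay in 51 cells, with at most 6 in 1 cell. T cells had at most 1.48 CPM and MS4A7+ monocytes at most 1 UMI in any library.

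Nonclassical monocyte genes were higher for Post-IS under the CD14+ label in 6 of 10 measured members, with a median of 0.83. The complement chain C1QB had 12, 49, 43 and 61 UMIs in library order, in 3, 8, 4 and 10 cells. FCGR3, the Fc receptor CD16, had 78.4 CPM in Pre-IS, 165 in Post-IS, 77.4 in 4 wpt and 109.7 in 8 wpt cells, against 1146 to 1642 CPM in MS4A7+ monocytes. Without the cells that held at least 2 of 5 MS4A7+ markers the list median was 0.13 over 6 measured members. That step chooses cells by UMIs of list members, so the part of MS4A7+ monocytes in these values was not tested. The migration and adhesion list had 7 of 21 members higher and 1 lower, among them the tetraspanin CD9 with 168, 285, 97.8 and 155 CPM and the integrin ITGB1 with 131, 209.5, 117 and 157 CPM. CCR2, the receptor for marrow exit, had 149.6, 107, 193 and 153 CPM.

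Several other groups had small medians for Post-IS over Pre-IS. The median was -0.01 for type I interferon genes, 0.00 for MHC class I, -0.08 for the inflammasome and interleukin 1 family, 0.06 for pattern recognition, -0.04 for glycolysis and 0.06 for the targets of immunosuppressants. The median was 0.03 for Fc and complement receptors, 0.04 for lysosomal genes, 0.02 for cytokine receptors, 0.17 for apoptosis genes, with 6 of 18 higher and 3 lower, and -0.07 for costimulatory genes. Scavenging and lipid genes had medians of 0.29 and 0.13. Coagulation genes had a larger median of 0.54, with 4 of 10 higher and 0 lower. The 4 were THBS1, THBD, the thrombin receptor thrombomodulin, with 47.4, 116, 32.3 and 55.8 CPM, TFPI, the tissue factor pathway inhibitor, with 25.5, 55.7, 35.7 and 33.7 CPM, and PLAUR, the urokinase receptor, with 23.7, 60.2, 29.8 and 21.2 CPM. CASP1, the inflammasome protease, had 1069, 1034, 1073 and 1052 CPM. NR3C1, the glucocorticoid receptor itself, had 60.2, 66.9, 75.7 and 69.3 CPM. FKBP1A, the binding partner of tacrolimus and rapamycin, had 321, 334, 278 and 373 CPM.

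At 4 wpt the early response genes stood far below Post-IS and below Pre-IS as well, and part of the interferon-induced genes stood above both. Of 6462 genes, 910 (14.1%) were higher at 4 wpt than at Post-IS and 997 (15.4%) lower, or 48 (0.743%) and 147 (2.27%) by the whole interval. Set against Pre-IS, 876 of 6615 (13.2%) were higher and 821 (12.4%) lower, or 33 (0.499%) and 36 (0.544%) by the whole interval. These comparisons share the 4 wpt library. The all-gene medians were -0.05 and -0.03.

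Of 17 early response genes 16 were lower at 4 wpt than for Post-IS and 0 higher, with a median of -1.76. Against Pre-IS 10 of 16 were lower, 8 of them by the whole interval, and 0 higher, with a median of -0.83. NR4A1 was 30.1-fold lower (14.7 to 71.9) than Post-IS and 9.38-fold lower (4.28 to 23.4) than Pre-IS, on 8 UMIs at 4 wpt. FOS was 10.8-fold lower (9.84 to 11.96) than Post-IS and 4.49-fold lower (4.03 to 4.99) than Pre-IS. FOSB, a second AP-1 subunit, had 131 CPM in Pre-IS, 446 in Post-IS, 27.2 in 4 wpt and 33.7 in 8 wpt cells. ZFP36, the RNA-decay factor tristetraprolin, had 1505 CPM in Pre-IS, 1968 in Post-IS, 697 in 4 wpt and 868 in 8 wpt cells and was 2.16-fold lower (1.96 to 2.38) at 4 wpt than for Pre-IS. The libraries of the graft period thus lay on the low side of both earlier ones for these genes. In MS4A7+ monocytes the median of the list against Pre-IS was 0.03.

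Glucocorticoid-induced genes were lower at 4 wpt than for Post-IS in 8 of 17 members and higher in 0. Against Pre-IS 2 of 16 were higher and 1 lower, with a median of -0.07, and neither share was above the 13.2% and 12.4% of all genes. The 2 higher genes were CD163 and FKBP5, by 1.82-fold (1.53 to 2.19) and 1.78-fold (1.26 to 2.56). The lower gene was DUSP1. TSC22D3 and TXNIP had 313 and 672 CPM at 4 wpt against 462 and 927 CPM for Pre-IS, within 1.5-fold. MHC class II genes had a median of -0.24 against Pre-IS, with 0 of 10 higher and 2 lower.

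Of 28 measured type I interferon genes 11 were higher at 4 wpt than for Post-IS and 0 lower, with a median of 0.48, and the same numbers were 11, 0 and 0.31 against Pre-IS. IRF7, the factor that amplifies interferon production, had 14.6 CPM in Pre-IS, 13.4 in Post-IS, 54.4 in 4 wpt and 35.6 in 8 wpt cells, 3.73-fold higher (1.78 to 9.01) at 4 wpt than for Pre-IS. PARP14, an ADP-ribosyltransferase, had 38.3 CPM in Pre-IS, 13.4 in Post-IS, 61.2 in 4 wpt and 53.9 in 8 wpt cells, lowest for Post-IS. The antiviral factor SAMD9L had 115 CPM in Pre-IS, 114 in Post-IS, 202 in 4 wpt and 107 in 8 wpt cells, high at 4 wpt alone. XAF1, an interferon-induced antagonist of the apoptosis inhibitor XIAP, had 16.4 CPM in Pre-IS, 42.4 in Post-IS, 45.1 in 4 wpt and 18.3 in 8 wpt cells, so Post-IS was already as high as 4 wpt. IFI27, a mitochondrial protein, had 3.65 CPM in Pre-IS, 11.1 in Post-IS, 84.2 in 4 wpt and 28.9 in 8 wpt cells and was 23.1-fold higher (6.22 to 193) at 4 wpt than for Pre-IS, on 99 and 2 UMIs. Those 99 UMIs lay in 22 of 312 cells, with 25 in 1 cell, and T cells stood at 117 CPM at 4 wpt against 24.4 for Pre-IS.

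Few cells carried ISG15 or CXCL10, while the 64 UMIs of IRF7 at 4 wpt lay in 47 of 312 cells. ISG15, a ubiquitin-like modifier, had 0, 0, 19 and 4 UMIs in library order, and 11 of its 19 at 4 wpt sat in 1 cell. CXCL10, an interferon gamma-induced chemokine, had 3, 3, 25 and 9 UMIs, and 21 of its 25 sat in 1 cell. The median thinned cell held 3 UMIs of the type I list for Pre-IS and 4 in each of the other libraries, and the highest held 37 at 4 wpt. Dropping the cell with most UMIs of each gene left the list median at 0.35 against Pre-IS. MX1, the dynamin-like antiviral GTPase, stood within 1.5-fold in all libraries at 120.4, 132, 144 and 129 CPM. Interferon gamma targets had 3 of 14 higher and 3 lower against Pre-IS, beside 13.2% and 12.4% of all genes, with a median of 0.27. The guanylate-binding protein GBP3 had 82.1, 138, 185 and 136 CPM, and IDO1, the tryptophan-degrading enzyme, 192, 249.7, 315 and 183 CPM.

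**Figure D3:**
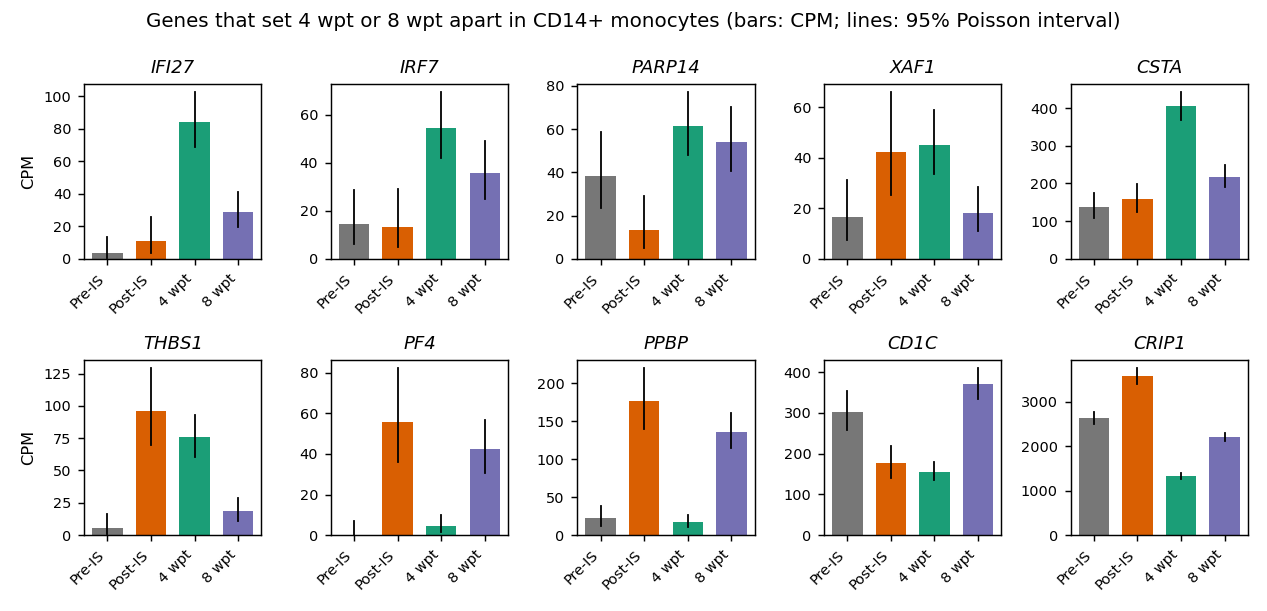
Levels of 10 genes in CD14+ monocytes, in CPM on linear axes that start at 0, with 95% Poisson intervals as lines. IFI27 and CSTA were highest at 4 wpt, THBS1 was high at Post-IS and 4 wpt, and PF4 and PPBP were high at Post-IS and 8 wpt.

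Outside the interferon list, CSTA, the cysteine protease inhibitor cystatin A, stood at 139 CPM in Pre-IS, 158 in Post-IS, 405 in 4 wpt and 218 in 8 wpt cells and was 2.92-fold higher (2.29 to 3.77) at 4 wpt than for Pre-IS. It had a UMI in 226 of 312 cells at 4 wpt, and T cells had at most 1.79 CPM. MS4A7+ monocytes had 49.98, 79.8, 180 and 75.5 CPM of CSTA in library order, also highest at 4 wpt. RBIS, a ribosome biogenesis factor, had 82.1 CPM in Pre-IS, 86.9 in Post-IS, 236 in 4 wpt and 94.3 in 8 wpt cells, again high at 4 wpt alone, and T cells had 79.3, 76.5, 214 and 109 CPM of it. UQCRB, a subunit of respiratory complex III, had 49.3 CPM in Pre-IS, 35.7 in Post-IS, 124 in 4 wpt and 73.1 in 8 wpt cells. CPT1A, which carries fatty acids into mitochondria, had 1, 10, 24 and 20 UMIs, low for Pre-IS alone. PADI2, a peptidylarginine deiminase, had 35 UMIs at 4 wpt against 0 for Post-IS, at least 4.45-fold higher, and SLC7A6OS 33 against 0, at least 4.20-fold. CD33, a sialic acid-binding inhibitory receptor of myeloid cells, was 5.25-fold higher (1.94 to 19.9) than for Post-IS. CYREN, SLA, GIMAP1 and PEBP1 were also named as higher than Post-IS, with folds of 12.2, 3.72, 2.72 and 2.90, and CYREN rested on 1 Post-IS UMI. GK5, PPCS, AKAP13, RSF1 and TGS1 were named as higher than Pre-IS, with folds of 6.41, 4.06, 2.48, 3.15 and 3.81.

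HMOX1, the haem-degrading oxygenase, was lowest at 4 wpt, with 108 CPM in Pre-IS, 78.02 in Post-IS, 33.2 in 4 wpt and 72.2 in 8 wpt cells, and was 3.24-fold lower (2.13 to 4.99) at 4 wpt than for Pre-IS. LST1, a leukocyte transmembrane protein more abundant in MS4A7+ monocytes, had 228 CPM in Pre-IS, 341 in Post-IS, 92.7 in 4 wpt and 156 in 8 wpt cells, and UPK3A had 51.1, 13.4, 13.6 and 22.1 CPM. CRIP1 and ZC3H10 were lower at 4 wpt as well, with 2623, 3573, 1323 and 2212 CPM and 2394, 3604, 1190.0 and 1774 CPM. For these last genes the order of the libraries ran opposite to the median UMIs per CD14+ cell, also in T cells for ZC3H10. The ZC3H10 row had a UMI in 89.1% to 95.7% of CD14+ cells. The assignment of reads to CRIP1 and ZC3H10 was not checked. FOS, JUN, EGR1, NR4A1, JUNB, FOSB and ZFP36 of the early response list ran in that order of libraries too. DUSP1, KLF6, MCL1 and ZFP36L1 did not. The part of depth in these values was not tested.

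Between 8 wpt and 4 wpt smaller shares of genes passed the rule than between Post-IS and Pre-IS. Of 7183 genes 749 (10.4%) were higher at 8 wpt and 666 (9.27%) lower, or 23 (0.32%) and 22 (0.306%) by the whole interval. Against Pre-IS 757 of 6414 (11.8%) were higher at 8 wpt and 606 (9.45%) lower, or 9 (0.14%) and 17 (0.265%) by the whole interval. The all-gene medians were 0.03 and 0.01.

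Early response genes were low at 8 wpt too. Their median against 4 wpt was 0.13, with 1 of 16 higher and 0 lower, and ran between -0.28 and 0.13 over the alternatives, while against Pre-IS it was -0.82 with 12 of 16 lower and 0 higher. PTGS2 was 7.37-fold lower (3.47 to 17.4) at 8 wpt than for Pre-IS and FOS 3.32-fold (3.01 to 3.68). SOCS3, a feedback inhibitor of cytokine signalling, had 19, 35, 14 and 8 UMIs in library order. G0S2, an inhibitor of the lipase ATGL, had 16, 27, 11 and 6 UMIs. NCF1 was 2.19-fold lower (1.76 to 2.72), and STMN3 and the focal adhesion protein PARVB were also named as lower, 3.79-fold and 2.30-fold.

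Of 29 type I interferon genes 9 were lower at 8 wpt than at 4 wpt and 1 higher, for a median of -0.30. Against Pre-IS 7 of 28 were higher and 2 lower, for a median of 0.12. IFI27 was 2.92-fold lower (1.92 to 4.55) at 8 wpt than at 4 wpt. Of 16 glucocorticoid-induced genes 5 were lower than at 4 wpt and 2 higher, for a median of -0.18. The lower genes were FKBP5, PER1, CD163, DDIT4 and FPR1, and the higher ones SGK1 and THBD. FKBP5 was 2.11-fold lower (1.58 to 2.85), and its 64.5 CPM lay close to the 76.6 CPM of Pre-IS. CD163 stood at 312 CPM at 8 wpt against 515 CPM at 4 wpt. In the NF-kB list 4 of 14 genes were lower than at 4 wpt and 0 higher, for a median of -0.41. THBS1 was 4.14-fold lower (2.50 to 7.20), CSTA 1.85-fold (1.58 to 2.18) and RBIS 2.51-fold (1.99 to 3.19). KMT2D, AKAP17A, GK5, EPB41, PPM1L, FOXK2 and MFN2 were also named as lower, on 3 to 34 UMIs at 8 wpt.

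CD1C, which presents lipid antigens and is best known from dendritic cells, ranked first at 8 wpt over 4 wpt apart from platelet genes. It had 303 CPM in Pre-IS, 176 in Post-IS, 156 in 4 wpt and 370.5 in 8 wpt cells, 2.38-fold higher (1.99 to 2.85) at 8 wpt than at 4 wpt and near the Pre-IS level. Its 385 UMIs at 8 wpt lay in 165 of 346 cells, with at most 9 in 1 cell. CD1C is not specific to dendritic cells. B cells had 1576, 1086 and 1422 CPM of it for Pre-IS, 4 wpt and 8 wpt, against 767, 778 and 983 CPM in dendritic cells. Of the dendritic cell markers CLEC9A, XCR1 and CADM1 had 0 UMIs in all 4 libraries, FCER1A had 12.8, 8.92, 2.55 and 8.66 CPM and CLEC10A 21.9, 13.4, 21.3 and 19.2 CPM. MHC class II genes had a median of 0.32 against 4 wpt and -0.06 against Pre-IS, and MAMU-DRA stood at 6745 CPM at 8 wpt against 5635 CPM for Pre-IS. LIPA, the lysosomal acid lipase, had 224, 254, 139 and 263 CPM. PTGIR, the prostacyclin receptor, had 51.1, 78.02, 26.4 and 72.2 CPM. DNASE2, PLVAP, ECM1, ELAVL1, SUPT5H and CAPZA2 were also named as higher than at 4 wpt, with folds of 4.52, 3.70, 3.88, 2.19, 2.39 and 1.75. Against Pre-IS the named genes were PF4, PPBP, CPT1A, EVI5L, GNG3, the adenosine receptor ADORA2B and the translation termination factor GSPT1, and the last 5 rested on 1 to 6 Pre-IS UMIs.

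MS4A7+ monocytes of the same libraries gave other medians for several lists, although the difference itself had no replicate to be tested on. For Post-IS over Pre-IS the early response median was 1.07 in CD14+ and 0.18 in MS4A7+ monocytes, with 3 of 12 members higher and 0 lower in the MS4A7+ class. For NF-kB genes it was 0.77 and -0.28, the MS4A7+ value over 4 members. Glucocorticoid-induced genes were at 0.85 and 0.64, mitochondrially encoded genes at 1.18 and 1.12, heat shock genes at 0.58 and 0.63, and MHC class II genes at -0.48 and -0.27. Both classes were thus alike in sign for the last 4 lists. For 4 wpt over Pre-IS the early response median was -0.83 and 0.03, and the type I interferon median 0.31 and 0.08. Of the type I interferon genes 11 of 28 were higher and 0 lower in CD14+ monocytes, and 8 of 25 higher and 2 lower in MS4A7+ monocytes. Among all genes 13.2% were higher and 12.4% lower in CD14+ monocytes. Such shares were not computed in MS4A7+ monocytes, so the MS4A7+ counts given here have no background to be read against. The MS4A7+ class held 100047 to 137874 UMIs before transplantation, so its low members were not measured.

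**Figure D4:**
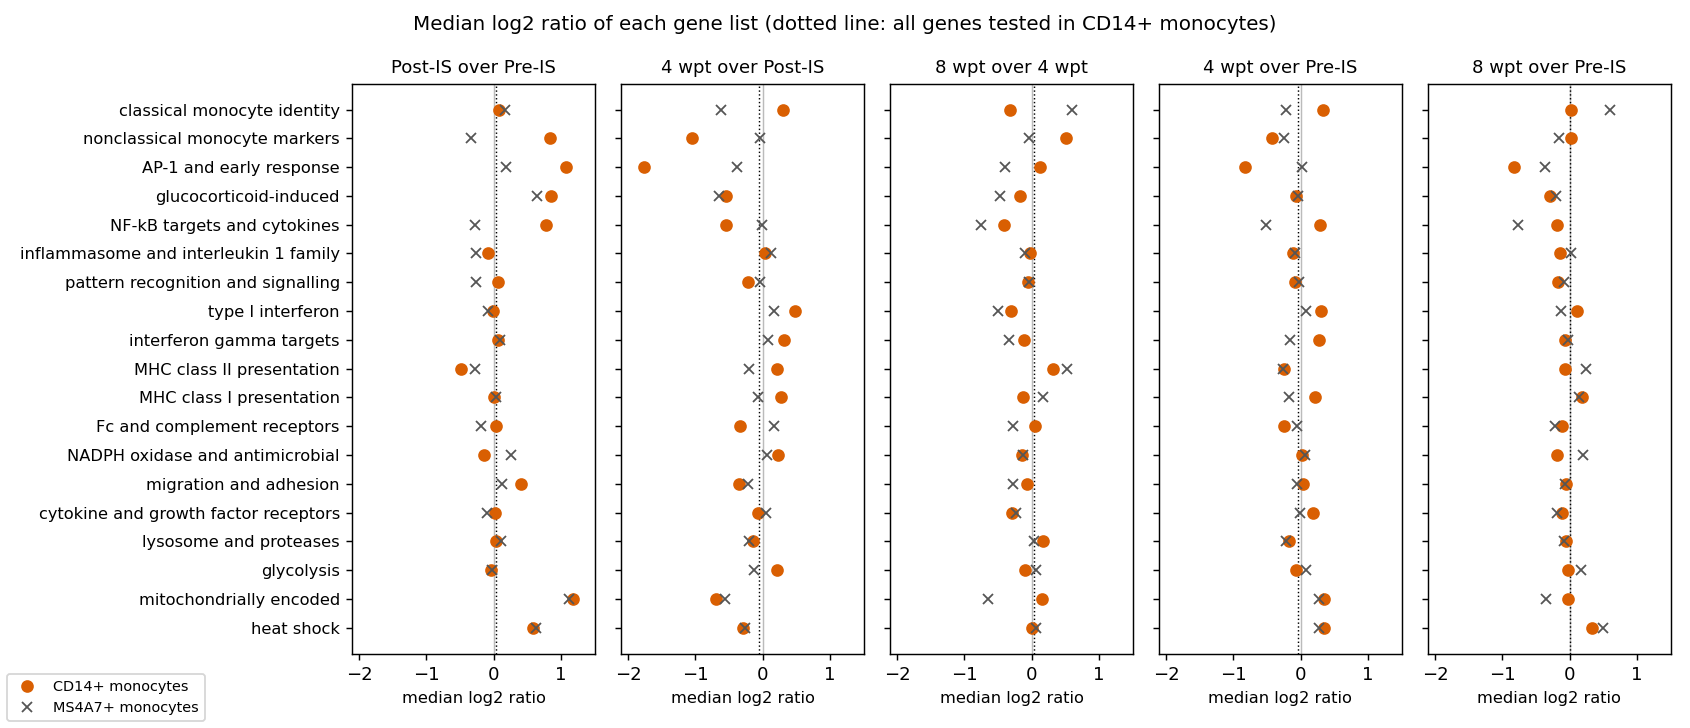
Median log2 ratio of 19 gene lists for the 5 pairs of libraries, with CD14+ monocytes as circles and MS4A7+ monocytes as crosses, and dotted lines at the median over all genes tested in CD14+ monocytes. The early response circle lay at 1.07 for Post-IS over Pre-IS, at -1.76 for 4 wpt over Post-IS and near -0.8 against Pre-IS at 4 and 8 wpt.

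Within the label, cells formed a range from rich in S100A8 to lacking it. After thinning to 1000 UMIs the median cell held 5, 2, 8 and 5 S100A8 UMIs in library order, and the highest cell held 63, 46, 50 and 49. No S100A8 UMI was found in 21.7% of cells (16.5 to 27.7) before and 38.5% (31.5 to 45.9) after immunosuppression, and 13.1% (9.38 to 17.6) and 26.0% (21.4 to 31.1) at weeks 4 and 8. Because the Post-IS level in CPM was the highest while its share of cells was the lowest, no order of libraries is read from these shares. A further 32, 23, 29 and 38 cells held 1 or 2 S100A8 UMIs, so the cut marks a range and not a type. The classical identity list as a whole spread widest for Post-IS, with quartiles of 8 and 36 UMIs per cell, against 13 and 33 for Pre-IS.

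**Figure D5:**
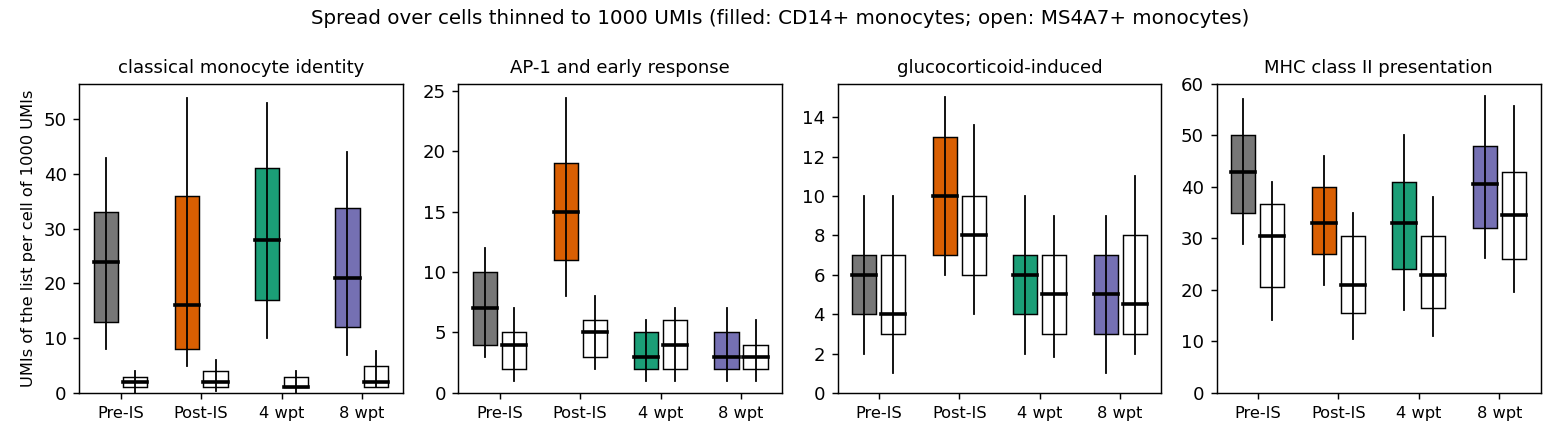
UMIs of 4 gene lists per cell after thinning to 1000 UMIs, on linear axes that start at 0, with filled boxes for CD14+ and open boxes for MS4A7+ monocytes. Boxes span the quartiles, thick lines mark medians and thin lines run from percentile 10 to percentile 90, and the early response box of Post-IS CD14+ cells lies above all others in its panel.

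Cells without S100A8 were compared with cells that had it inside each library, as mean UMIs per thinned cell. S100A9 averaged 0.0625 against 2.95 for Pre-IS, 0.139 against 4.53 for Post-IS, 0.108 against 3.59 at 4 wpt and 0.0690 against 2.44 at 8 wpt, so S100A9 was near 0 where S100A8 was. MAMU-DRB1, an MHC class II beta chain, averaged 8.92 against 6.21 for Pre-IS, 6.08 against 4.62 for Post-IS, 6.97 against 4.05 at 4 wpt and 9.03 against 5.57 at 8 wpt. It was 1.32 to 1.72 times as high in cells without S100A8, and higher in 4 of 4 libraries. CD74 averaged 28.98 against 23.2 for Pre-IS, 21.5 against 16.2 for Post-IS, 25.2 against 18.7 at 4 wpt and 27.8 against 21.6 at 8 wpt. The MHC class II list as a whole was 1.25 to 1.37 times as high. LYZ averaged 6.17 against 11.5 for Pre-IS, 5.33 against 11.3 for Post-IS, 6.92 against 11.5 at 4 wpt and 6.34 against 12.1 at 8 wpt, and FCN1 1.04 against 1.85 for Pre-IS, 0.319 against 1.17 for Post-IS, 0.811 against 1.71 at 4 wpt and 0.448 against 1.44 at 8 wpt. FCGR3 averaged 0.188 against 0.0231 for Pre-IS, 0.278 against 0.0609 for Post-IS, 0.189 against 0.0244 at 4 wpt and 0.345 against 0.0243 at 8 wpt. These FCGR3 means rested on few UMIs, 9 against 4, 20 against 7, 7 against 6 and 30 against 6 in library order. Cells without S100A8 therefore held less LYZ and FCN1 and more MHC class II and FCGR3 transcripts in each library. The mitochondrially encoded list was 1.18 to 1.53 times as high in them. T cell markers averaged 0.125 against 0.00578, 0.0694 against 0, 0.0811 against 0.0366 and 0.0575 against 0.0769 in library order. They rested on 6, 5, 3 and 5 UMIs in cells without S100A8 and 1, 0, 9 and 19 in cells with it. NK cell markers averaged 0.208 against 0.121, 0.0139 against 0, 0.324 against 0.0854 and 0.195 against 0.109. Those means rested on 10, 1, 12 and 17 UMIs against 21, 0, 21 and 27. B cell markers averaged 0 against 0.0867, 0.0139 against 0, 0 against 0 and 0.0805 against 0.0121.

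Other lists differed from each other in how they followed this range. The early response list averaged 8.35 against 6.93 for Pre-IS, 15.3 against 15.7 for Post-IS, 3.32 against 3.39 at 4 wpt and 3.93 against 3.56 at 8 wpt. Its ratio was 1.21 (1.07 to 1.35) for Pre-IS, 0.975 (0.904 to 1.05) for Post-IS, 0.979 (0.804 to 1.18) at 4 wpt and 1.10 (0.972 to 1.25) at 8 wpt. The glucocorticoid-induced list averaged 5.88 against 5.77 for Pre-IS, 10.96 against 9.92 for Post-IS, 6.08 against 5.72 at 4 wpt and 5.66 against 4.79 at 8 wpt. Glycolytic genes, which turn glucose to pyruvate, were 1.34 to 1.79-fold lower in cells without S100A8 in all libraries. THBS1 had 0 UMIs in thinned cells without S100A8 for Pre-IS, Post-IS and 4 wpt and 1 at 8 wpt, against 2, 15, 28 and 5 UMIs in cells with it. The dendritic cell list averaged 0.646 against 0.301 for Pre-IS, 0.361 against 0.209 for Post-IS, 0.351 against 0.167 at 4 wpt and 0.621 against 0.344 at 8 wpt. That list is not specific to dendritic cells. Its summed level in T cells was 1894, 424, 1316 and 2084 CPM in library order, against 502, 267, 280 and 524 CPM in CD14+ cells. The nonclassical list averaged 3.90 against 2.12 for Pre-IS, 5.06 against 2.03 for Post-IS, 3.24 against 1.41 at 4 wpt and 3.14 against 1.40 at 8 wpt. Before thinning, the cells without S100A8 had median totals of 2556, 1860, 7245 and 3755 UMIs, against 2169, 1834, 3229 and 2648 for cells with it. The part of doublets or of neighbouring cell types in this range was not tested.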

How the data were processed

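Single-cell libraries of macaque PBMCs were made with the 10x Genomics 5' V1 kit and sequenced as paired reads of 150 bases, per the labels' protocols. Cell Ranger 3.1.0, Seurat 3.2.3 and the build Mmul_10 are named in the submitters' processing notes. The deposited files hold raw UMI counts for 15354 gene rows and a cell label per barcode. How the authors chose cells, removed doublets and labelled cells is not given in the sources used here. Of 2559 rows with an identifier for a name, 400 were named from a gene table, 40 were ambiguous and 2159 had no symbol. No doublet caller was run.

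UMIs were summed per library over CD14+ cells. Levels have exact Poisson intervals, ratios exact conditional binomial intervals and shares Clopper-Pearson intervals. No count test was run, since each group has 1 library. List medians use an offset of 0.5 UMIs and members with at least 20 UMIs over both libraries. The naming rule took up to 12 genes per direction and pair, ranked by the interval bound nearest to even, with that bound past 1.5-fold and a UMI in at least 5% of cells. Unnamed genes, those of ribosomes, mitochondria, hemoglobins and antigen receptors, and genes that in both libraries lay under 10% of the CPM of their highest class were passed over. Other genes are members of 34 lists or cell type markers. Members and lists were chosen with earlier results of these data known. The split of cells by S100A8 and the comparison of UMIs within single cells were chosen after seeing the data.

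Alternatives were TMM factors (edgeR 4.0.16 in R 4.3.3) and median-of-ratios scaling, equal weight per cell, thinning to 1000 UMIs, a minimum of 50 UMIs, no minimum, 2 UMIs as the offset, a class total that omits ribosomal, mitochondrial and hemoglobin and antibody genes, pooled monocyte labels, and cells left out for markers of another type. Added after seeing the data were cells without platelet markers, cells without 2 MS4A7+ markers, cells of at least 1000 UMIs unthinned, and each gene without its richest cell. Python 3.11.15 with numpy 2.4.6, scipy 1.17.1, pandas 2.3.3 and matplotlib 3.10.9 was used, and the code was tested on simulated data.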

Additional observations from a re-analysis of the deposited data

Results flagged for a closer look

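For 8 wpt over 4 wpt, 2 genes named in CD14+ monocytes lay on the other side of even in MS4A7+ monocytes. PTGIR, the prostacyclin receptor, had a log2 ratio of 1.45 in CD14+ monocytes and a ratio of 0.327 in MS4A7+ monocytes. SUPT5H, a transcription elongation factor, had a log2 ratio of 1.26 in CD14+ monocytes and a ratio of 0.531 in MS4A7+ monocytes. Each class had 1 library per time, and the difference was not tested.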

How the results depend on the processing

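No paired analysis was possible because each group is 1 library. Counts of genes past 1.5-fold depended on the UMI minimum, which also set how many genes were measured. With at least 50 UMIs, 349 of 2637 genes were higher and 210 lower for Post-IS over Pre-IS. The counts were 339 and 515 of 3868 for 4 wpt over Post-IS, and 330 and 285 of 4777 for 8 wpt over 4 wpt. Against Pre-IS they were 369 and 347 of 4025 at 4 wpt, and 247 and 212 of 3806 at 8 wpt. With no minimum these counts, in the same order of pairs, were 1985 and 1929 of 10900, 1747 and 2215 of 11415, and 1674 and 1513 of 11751. The last pairs had 1600 and 2034 of 11485, and 1604 and 1778 of 11436. Thinning cells to 1000 UMIs left fewer genes measured and gave 519 and 354 of 2754 for Post-IS over Pre-IS. It gave 411 of 3067 higher for 4 wpt over Post-IS and 410 of 3712 lower for 8 wpt over 4 wpt. Against Pre-IS it gave 422 and 517 of 3189 at 4 wpt and 419 of 3427 higher at 8 wpt. With monocytes as denominator the share of CD14+ cells was 77.3%, 71.5%, 60.1% and 84.2% in library order. The early response median stayed between 0.89 and 1.24 for Post-IS over Pre-IS over the alternatives tried, between -2.04 and -1.41 for 4 wpt over Post-IS, and between -0.28 and 0.13 for 8 wpt over 4 wpt, where its sign depended on the setting. Of 244 values of list medians that were past 1.5-fold as reported, 2 changed sign under an alternative. Of 1817 values of medians within 1.5-fold 160 changed sign, so the sign of a small median is not firm. Pooling CD14+ and MS4A7+ labels turned the lipid list to 0.044 for 4 wpt over Post-IS, and DNASE2 to -0.025 for 8 wpt over 4 wpt. The log2 ratio of PF4 for 8 wpt over Pre-IS was -0.039 without cells that held 2 markers of another type. PF4 is itself one of those markers, and its Pre-IS level was set at the floor. The NK marker list for 8 wpt over Pre-IS was 0.45 without cells with 2 MS4A7+ markers, an alternative chosen after seeing the data. The causes were not tested. Depth limited Post-IS most, with 448622 UMIs.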

Other observations

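Cytotoxic granule genes, which belong to NK and T cells, were found in few CD14+ cells. GZMB, the protease granzyme B, had 48, 0, 49 and 57 UMIs in library order, in 7, 0, 11 and 21 cells, and its richest cell held 19, 0, 26 and 16 of them. GNLY, the pore-forming granulysin, had 40, 1, 77 and 16 UMIs, with 53 of the 77 at 4 wpt in 1 cell.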
